A study of Mus musculus with 7 samples.

Results

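The insulin-like growth factor (IGF) system was described in quadriceps muscle of AR113Q and WT mice through 10 of its genes. They were the ligands Igf1 and Igf2, the receptors Igf1r, Igf2r and Insr, the receptor substrates Irs1 and Irs2, and the binding proteins Igfbp3, Igfbp4 and Igfbp5. Members were chosen by name, as every non-control array probe whose gene name or current symbol was 1 of these 10, out of 31131 genes on the array. They were read by 17 probes, and all 17 passed the filter on dim signals that left 20948 probes and 16553 genes in the test. The arrays came from C57BL/6 mice, 4 labelled WT and 3 labelled AR113Q, with 1 single-dye (Cy3) Agilent array per sample. AR113Q mice are a knock-in model of spinal and bulbar muscular atrophy, and the series text calls them AR113Q-NCD. The sample labels give an age of 3 months and the series text 90 days, a time the series calls presymptomatic. The labels call the controls WT, whereas the paper's account of the arrays names control mice of a knock-in strain, so the genotype of the controls is given here as labelled.

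IGF1 and IGF2 are secreted growth factors that circulate and also act within the tissue that makes them, and in skeletal muscle IGF1 promotes fiber growth and protein synthesis. They signal through the tyrosine kinase receptor IGF1R, and the closely related insulin receptor INSR binds insulin and, in 1 of its isoforms, IGF2. Active receptors phosphorylate the docking proteins IRS1 and IRS2, which pass the signal to PI3 kinase, AKT and mTOR and, through adaptor proteins, to the RAS-MAPK cascade. IGF2R is the cation-independent mannose 6-phosphate receptor, which takes up IGF2 for degradation and sorts lysosomal enzymes. The IGF binding proteins hold the ligands outside the cell, where they can limit or prolong their action.

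Igf1 was read by 5 probes, Insr by 3, Irs1 by 2 and each of the other 7 genes by 1. The probes are 60 bases long, and 30 bases are shown for those on which the results turn, so that the targets of the probes that disagreed can be told apart. Probe positions are on mm9, as annotated by the array maker, and whether a probe lies in a coding or an untranslated exon was not determined here. Capitals mark the 20 bases that the printed stretches of Igf1 probes 1 and 5 share. These 2 probes overlap by 40 bases on the genome and are not separate readings of the transcript. Probe 4 is assigned to a different Igf1 transcript from the other 4 and lies 15045 bases upstream of the nearest of them.
Igf1 probe 1, chr10:87393581-87393640, plus strand, first 30 bases: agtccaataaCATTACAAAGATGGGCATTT
Igf1 probe 2, chr10:87395924-87395983, plus strand, first 30 bases: agaaatgtaaatggaataagaggtcagctg
Igf1 probe 3, chr10:87399581-87399640, plus strand, first 30 bases: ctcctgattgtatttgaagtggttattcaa
Igf1 probe 4, chr10:87378456-87378515, plus strand, first 30 bases: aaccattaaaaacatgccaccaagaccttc
Igf1 probe 5, chr10:87393561-87393620, plus strand, last 30 bases: CATTACAAAGATGGGCATTTcccccaatga
Irs1 probe 1, chr1:82233564-82233623, minus strand, first 30 bases: aatgaatgcttaaaacaaggctaaaaagag
Irs1 probe 2, chr1:82229692-82229751, minus strand, first 30 bases: tacccccaattctgtctggtacttagaatt
Irs2 probe, chr8:11004490-11004549, minus strand, first 30 bases: tggagctttgccctctgccagcacctatgc
Igf1r probe, chr7:75378461-75378520, plus strand, first 30 bases: gctaaagctaaggccacttgagtctattac
Igfbp3 probe, chr11:7106594-7106653, minus strand, first 30 bases: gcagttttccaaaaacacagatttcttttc
Igfbp5 probe, chr1:72904829-72904888, minus strand, first 30 bases: cacatcacatattactgtagctctctatag

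The 5 slides were scanned on 1 day, and both genotypes were together on slide 2 alone, as WT replicate 2 with AR113Q replicate 1. Between 47.6% and 55.8% of probes were well above background on each array, 0 spots were saturated, and the correlation of arrays over probes was 0.969 to 0.987 within a genotype and 0.908 to 0.943 between genotypes. Nothing in the labels says whether arrays of a genotype came from separate cages or litters, and the p-values measure the spread between these arrays.

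Values below are quantile-normalized log2 intensities, and a difference of 1 is a doubling. A differentially expressed probe (DEG) had a Benjamini-Hochberg adjusted p of at most 0.05 over all 20948 probes (limma) together with a log2 fold change of 1 or more in size. In AR113Q muscle, Igf1, Irs1 and Igfbp5 were lower and Igf1r, Insr, Irs2 and Igfbp3 were higher than in WT muscle, while Igf2, Igf2r and Igfbp4 did not pass the test. Of the 17 probes, 6 were DEGs with a higher level in AR113Q (35.3%, against 12.2% of all probes tested) and 7 were DEGs with a lower level (41.2%, against 12.6%), 1 of them (Irs1 probe 1) with AR113Q not well above background. Igfbp3, among the 6 higher, needed its AR113Q arrays to meet the filter on dim signals. The genotypes did not overlap on 13 probes (76.5%, against 49.6% of all probes). These shares are descriptive, since the members were chosen with earlier results of these data known and 3 genes have more than 1 probe. The median log2 fold change was -0.11 over the 17 probes and 0.01 over all probes tested, because falls and rises were both present. Counted by gene, with the probe of highest mean standing for each, 4 of 10 were DEGs with a higher level, against 11.2% of all genes, and 3 of 10 with a lower level, against 13.1%. On slide 2 alone, the AR113Q and the WT array differed by 1.11 to 4.98 in size on the 13 DEG probes, a direction already fixed by the lack of overlap over all arrays. When slide entered the fit as a fixed effect, that slide alone informed the genotype difference and 0 probes passed (7912 of all probes at an unadjusted p under 0.05), since each of the other slides held a single genotype.

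**Figure D1:**
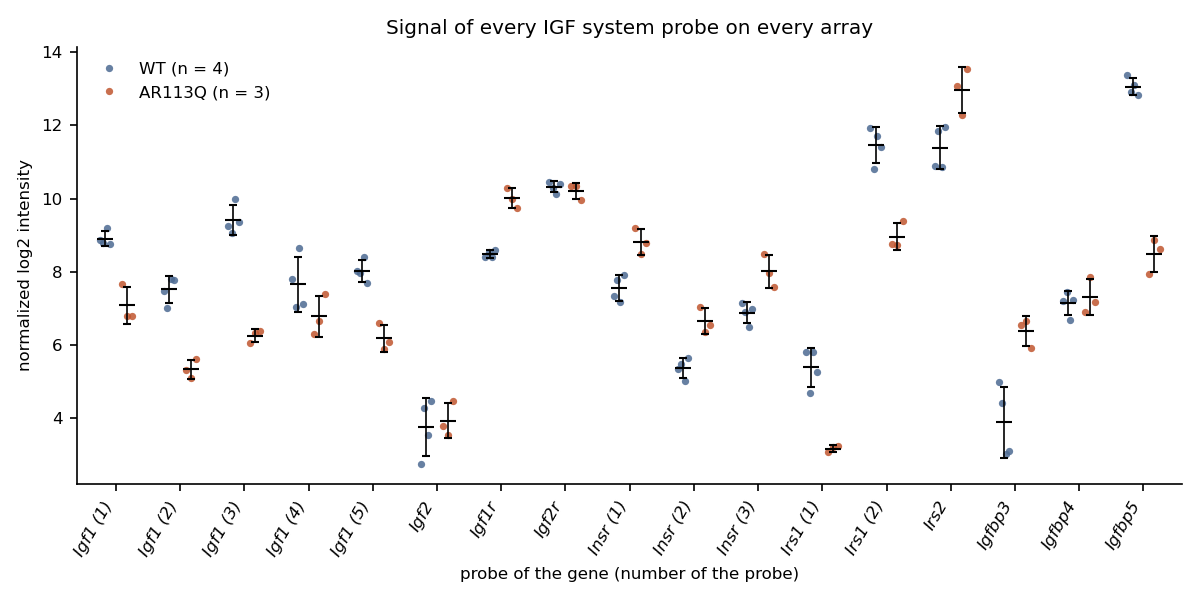
Normalized log2 intensity (y axis) of each of the 17 probes (x axis) on each array, with blue points for the 4 WT and orange points for the 3 AR113Q arrays; black bars are the mean and 1 SD. Igfbp5 ranges from 12.84 to 13.36 in WT and from 7.93 to 8.88 in AR113Q, and Igf2, Igf2r, Igfbp4 and Igf1 probe 4 show overlapping genotypes.

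Igf1, the main IGF of postnatal growth, fell on 4 of its 5 probes. On probe 1, the brightest over all arrays, the WT arrays read 8.86, 8.78, 9.20 and 8.75 and the AR113Q arrays 7.67, 6.79 and 6.80. On probe 2 they read 7.48, 7.02, 7.80 and 7.77 against 5.31, 5.09 and 5.61. On probe 3 they read 9.24, 9.07, 9.99 and 9.37 against 6.06, 6.34 and 6.37. Every AR113Q array was below every WT array on these 3 probes, and the gap between the genotypes was widest on probe 3. Probe 5, which overlaps probe 1, read 8.02, 7.96, 8.405 and 7.70 in WT and 6.59, 5.89 and 6.07 in AR113Q. The log2 fold change was -1.81 on probe 1 (95% CI -2.38 to -1.24, adjusted p = 0.000982) and -2.18 on probe 2 (-2.72 to -1.65, adjusted p = 0.000376) in the limma fit. It was -3.16 on probe 3 (-3.70 to -2.62, adjusted p = 0.000109) and -1.84 on probe 5 (-2.37 to -1.30, adjusted p = 0.000697). Probe 4, the one assigned to the other transcript, read 7.81, 7.04, 8.65 and 7.11 in WT and 6.30, 6.66 and 7.38 in AR113Q. AR113Q replicate 3 lay within the WT range there, and the difference of -0.88 did not pass (95% CI -1.85 to 0.09, adjusted p = 0.127). With each array left out in turn, that difference ran from -1.18 to -0.54. Whether the change on probe 4 differs from that on the others was not tested, since the probe was singled out by its values. Probe 1 gave -1.12 with the authors' normalized values, and probe 5 gave -1.03 with normexp background correction. Probe 3 gave -1.81 with the authors' normalized values, -2.12 with normexp and -2.24 without background subtraction. On probe 2 the fold change passed the test but was under 1 under the same alternatives (-0.62, -0.92 and -0.99).

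Igf2, the mainly fetal ligand and an imprinted gene, was near the detection limit. Its probe was well above background on 2 WT and 2 AR113Q arrays, with values of 2.75, 4.28, 3.55 and 4.46 in WT and 3.79, 3.55 and 4.46 in AR113Q. The genotypes overlapped throughout, and the difference of 0.17 had an interval of -0.80 to 1.14 (adjusted p = 0.764, limma). Its sign turned to -0.11 when arrays were scaled to their 75th percentile. The interval reaches past a 2-fold rise, so no such change could be told from none at this signal. On the same array, Igf1 fell relative to Igf2 by 1.98 between the genotypes (95% CI -3.64 to -0.33, exact permutation p = 0.0286, adjusted over 6 pairs of related genes p = 0.0429, two-sided). An exact permutation p of 0.0286 is the smallest that 35 arrangements of 4 against 3 arrays allow. With the 75th percentile scaling this shift was -1.75 and its exact permutation p was 0.143. Its interval also reached past 0 without WT replicate 1 (-3.37 to 0.05), WT replicate 3 (-3.84 to 0.21), AR113Q replicate 2 (-4.29 to 0.23) or AR113Q replicate 3 (-3.49 to 0.34). Because Igf2 was well above background on 4 of 7 arrays, the size of the shift is set against a partly unmeasured level.

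Over the 7 arrays, the genes whose pattern was most like that of Igf1 probe 1 were Pqlc3 (Pearson r = 0.995), the unnamed array transcript NAP093863-001 (r = 0.993) and D230034L24Rik (r = 0.993), among 13694 genes well above background on all arrays. All 3 were lower in AR113Q, by 1.36, 1.09 and 1.18. The likeness includes the split between the genotypes that Igf1 shares with every gene that fell. For Igf2, whose pattern includes 3 arrays not well above background, the closest were Ap2a1 (r = 0.952), Ankrd1 (r = 0.917) and Gm14635 (r = 0.905), and none of these 3 passed the test between genotypes.

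Both receptors of the tyrosine kinase family rose. Igf1r, the IGF1 receptor, read 8.41, 8.55, 8.397 and 8.59 in WT and 10.29, 9.98 and 9.74 in AR113Q. The WT arrays lay within 0.19 of one another, and the lowest AR113Q array was 1.15 above the highest of them. The rise was 1.52, or 2.87-fold (95% CI 1.12 to 1.92 on the log2 scale, adjusted p = 0.000458, limma), and it was at least 1.21 in each of the 22 alternative settings that measured it.

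Insr, the insulin receptor, rose on all 3 of its probes, which lie at different places of the transcript. Probe 1 read 7.34, 7.76, 7.17 and 7.92 in WT and 9.20, 8.50 and 8.77 in AR113Q. Probe 2 read 5.34, 5.48, 5.01 and 5.63 against 7.04, 6.37 and 6.54, and probe 3 read 7.16, 6.90, 6.49 and 6.97 against 8.48, 7.96 and 7.58. AR113Q replicate 1 was the highest array on each probe, and no AR113Q array reached down to the WT range. The differences were close to one another at 1.27 (95% CI 0.71 to 1.84, adjusted p = 0.00421), 1.29 (0.77 to 1.80, adjusted p = 0.00264) and 1.13 (0.55 to 1.70, adjusted p = 0.00781) in the limma fit. With the authors' normalized values they were 0.86, 0.34 and 0.52, which passed the test but not the fold threshold, and probe 3 also dropped to 0.89 without AR113Q replicate 1 and to 0.997 without WT replicate 3. The shift of Igf1r relative to Insr was 0.25 (95% CI -0.27 to 0.76, exact permutation p = 0.286), so a difference between their changes was not resolved within that interval. Without AR113Q replicate 2 the shift was 0.09, and without WT replicate 4 it was 0.16. With the authors' normalized values the shift was 0.35 (95% CI 0.06 to 0.63) and passed (exact permutation p = 0.0286).

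Igf2r, the IGF2 and mannose 6-phosphate receptor, was the most tightly measured member, with 10 spots averaged per array. It read 10.46, 10.30, 10.12 and 10.41 in WT and 10.34, 10.33 and 9.97 in AR113Q, and the genotypes overlapped. The difference was -0.11 (95% CI -0.50 to 0.28, adjusted p = 0.634, limma), an interval that leaves out a change of 2-fold in either direction. Its sign turned to 0.02 with the authors' normalized values.

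**Figure D2:**
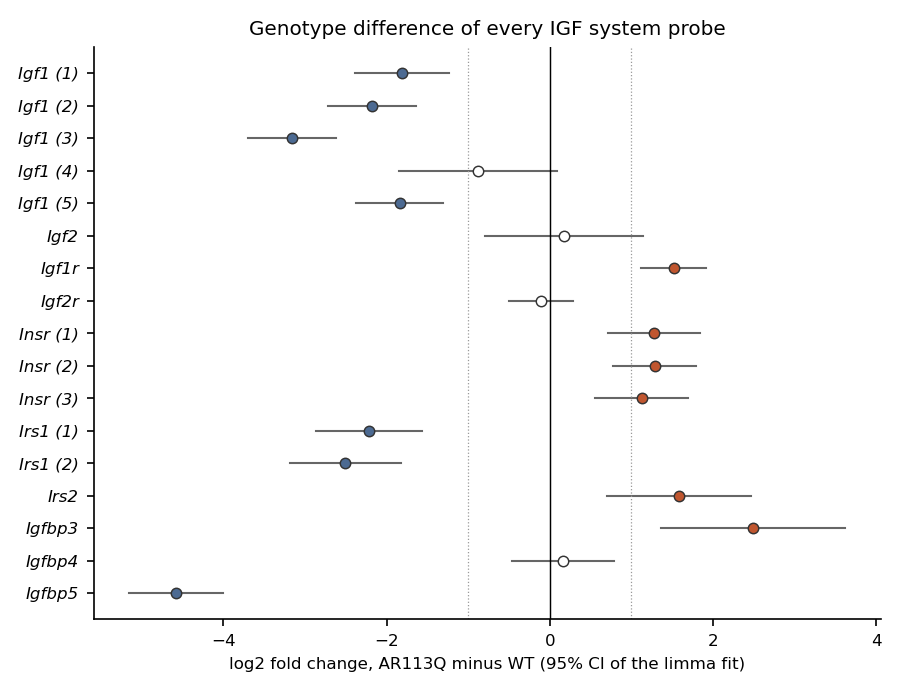
Log2 fold change of AR113Q minus WT (x axis) for each of the 17 probes (y axis), with lines for the 95% CI of the limma fit, filled points for DEGs, open points for the rest and dotted lines at -1 and 1. Igfbp5 has the lowest value (-4.58) and Igfbp3 the highest (2.49), and 4 points are open.

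The receptor substrates moved in opposite directions. Irs1 read 11.94, 10.81, 11.72 and 11.41 in WT and 8.75, 8.74 and 9.39 in AR113Q on its brighter probe 2. The highest AR113Q array was 1.42 below the lowest WT array, and the level fell by 2.51 (95% CI -3.19 to -1.83, adjusted p = 0.000541, limma), to 0.176 of the WT level. The dimmer Irs1 probe 1 read 5.81, 4.67, 5.81 and 5.25 in WT and 3.07, 3.21 and 3.23 in AR113Q. It was well above background on 4 of 4 WT and 0 of 3 AR113Q arrays, so it entered the test through WT alone and AR113Q has only a bound there. Set against the lowest signal well above background, it was at least 3.31-fold lower in AR113Q with the background-subtracted signals used here. The adjusted p of 0.000735 (limma) belongs to the difference between the genotypes and not to this bound. On that probe the log2 difference shrank to -0.40 with normexp, -0.35 without background subtraction and -0.20 with the authors' normalized values. Irs2 read 10.89, 11.85, 10.87 and 11.95 in WT and 13.08, 12.29 and 13.53 in AR113Q. The WT arrays formed a lower and a higher pair, and the lowest AR113Q array was 0.34 above the highest WT array. Irs2 rose by 1.58, or 2.99-fold (95% CI 0.70 to 2.46, adjusted p = 0.0115, limma), and by 1.30 to 1.92 with each array left out in turn. On the same array, the shift of Irs1 relative to Irs2 between the genotypes was -4.09 (95% CI -5.73 to -2.44, exact permutation p = 0.0286, adjusted p = 0.0429).

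Because these paralogs moved apart, their promoters are shown from RefSeq (GRCm38.p6), from 250 bases before to 50 after the annotated start. Capitals mark matches to the E-box CACGTG and to TGTTTT, the core of the insulin response element bound by forkhead factors, on either strand.
Irs1, chr1:82291390-82291689, minus strand: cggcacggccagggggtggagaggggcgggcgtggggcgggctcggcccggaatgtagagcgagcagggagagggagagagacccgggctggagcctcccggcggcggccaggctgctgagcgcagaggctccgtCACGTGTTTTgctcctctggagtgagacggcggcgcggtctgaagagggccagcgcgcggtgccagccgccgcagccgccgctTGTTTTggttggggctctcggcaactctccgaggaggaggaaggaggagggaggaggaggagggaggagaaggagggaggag
Irs2, chr8:11008880-11009179, minus strand: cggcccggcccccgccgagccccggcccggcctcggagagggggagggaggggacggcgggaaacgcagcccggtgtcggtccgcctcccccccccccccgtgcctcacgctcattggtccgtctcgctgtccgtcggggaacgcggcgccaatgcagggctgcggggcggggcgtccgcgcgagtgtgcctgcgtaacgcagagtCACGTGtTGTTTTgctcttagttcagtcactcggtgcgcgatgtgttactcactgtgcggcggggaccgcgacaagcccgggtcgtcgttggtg
Irs1 held CACGTG with its first base 115 bases before the start, overlapping a TGTTTT, and a second TGTTTT 32 bases before the start. Irs2 held CACGTG 44 bases before the start and TGTTTT 37 bases before it, without overlap. CACGTG occurred in 7.15% and TGTTTT in 22.1% of 32851 promoter windows of the same length. Among the 12 windows of the members (9 genes, 4 windows for Igf2, none for Insr), these were the 2 with both words, and Igf2r held CACGTG alone. The forkhead word TGTTTAC (3.65% of all windows) matched 0 of the 12, and the TATA box TATAAA (13.6%) matched 1, that of Igfbp4. The words were chosen with the Irs1 and Irs2 sequences in view, and a match is not evidence that a factor bound there. The 2 promoters shared both words, and whether the words bear on the changes of the transcripts was not tested.

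The 3 binding proteins showed a rise, a fall and no resolved change. Igfbp5, which muscle cells make during differentiation and which also accumulates in extracellular matrix, read 13.36, 12.91, 13.10 and 12.84 in WT and 7.93, 8.88 and 8.62 in AR113Q. Its signal was bright on every WT array and moderate on every AR113Q array, and the genotypes were separated by 3.96. The level fell by 4.58 (95% CI -5.15 to -4.00, adjusted p = 4.5e-05, limma), to 0.0419 of the WT level, and the difference ran from -4.98 to -4.14 over 22 alternatives.

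Igfbp3, the main carrier of IGF in serum, read 4.99, 4.41, 3.03 and 3.101 in WT and 6.55, 6.67 and 5.91 in AR113Q. It was well above background on 2 of 4 WT and 3 of 3 AR113Q arrays, and the WT arrays spread over 1.96 log2 units. The AR113Q arrays, in which it was higher, were needed for it to enter the test. Igfbp3 rose by 2.49 (95% CI 1.36 to 3.62, adjusted p = 0.00463, limma), but by 0.80 with normexp and by 0.82 without background subtraction, so the size rests on how the dim WT signal is treated. Igfbp4, an inhibitory binding protein cleaved by PAPP-A, read 7.21, 7.45, 6.67 and 7.23 in WT and 6.89, 7.85 and 7.18 in AR113Q. The genotypes overlapped, and the difference was 0.17 (95% CI -0.46 to 0.79, adjusted p = 0.652), which turned to -0.11 without AR113Q replicate 2.

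Within the same array, Igfbp3 rose relative to Igfbp5 by 7.07 (95% CI 5.51 to 8.63) and Igfbp4 rose relative to Igfbp5 by 4.74 (95% CI 3.99 to 5.50), each with an exact permutation p of 0.0286 (adjusted p = 0.0429). The shift of Igfbp3 relative to Igfbp4 was 2.33 (95% CI 0.92 to 3.74) and did not pass (exact permutation p = 0.0571, adjusted p = 0.0686). It was 0.68 both with normexp and without background subtraction and passed in each (exact permutation p = 0.0286). The shift of Igfbp3 relative to Igfbp5 was smaller there, at 5.04 and 5.14. For Irs1 with Irs2, and for Igfbp5 with Igfbp3 and with Igfbp4, separation of the genotypes already followed from the single genes. Their exact permutation p-values are therefore no further support, and Igf2 in the pair with Igf1 was partly unmeasured. In all, 4 of 6 pairs of related genes shifted at an adjusted p of at most 0.05. With 75th percentile scaling the number was 0 of 6, where 3 pairs (Irs1 with Irs2, and Igfbp5 with Igfbp3 and with Igfbp4) still had an exact permutation p of 0.0286 but an adjusted p of 0.0571. It was 5 of 6 with normexp, 5 of 6 without background subtraction and 3 of 3 measured with the authors' values. With any 1 array left out, the number is 0 of 6, because fewer arrays cannot give an exact permutation p low enough after adjustment.

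**Figure D3:**
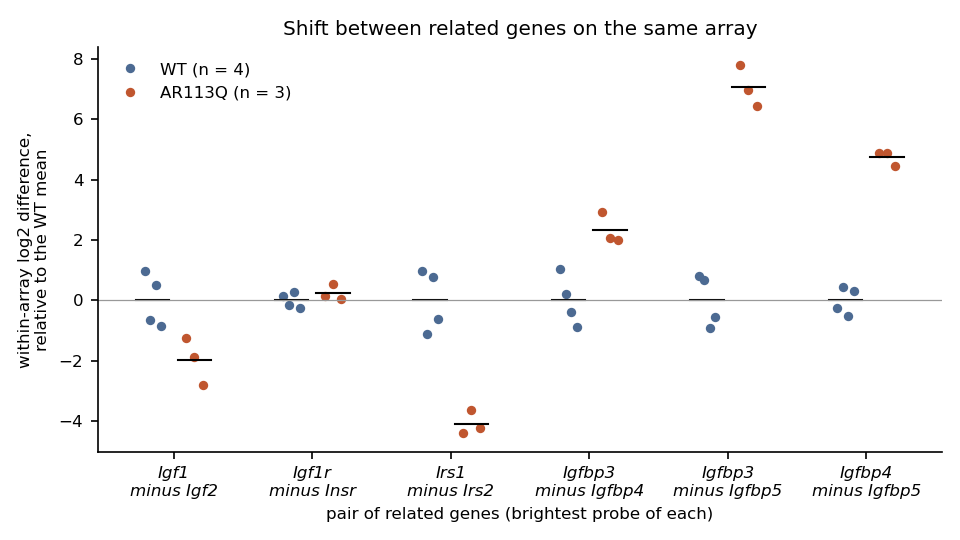
Within-array log2 difference between 2 related genes (y axis, relative to the WT mean) for the 6 pairs (x axis), with 1 point per array, blue for WT (n = 4) and orange for AR113Q (n = 3), and a bar at each mean. The AR113Q means lie at -4.09 for Irs1 minus Irs2 and at 7.07 for Igfbp3 minus Igfbp5, and the points of Igf1r minus Insr overlap.

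Genes around the 10 members were counted by their brightest probe. Over 12 pathway lists, 117 of 137 genes had a tested probe, and 21 were DEGs with a higher level (17.9%, against 11.2% of all genes) and 20 with a lower level (17.1%, against 13.1%). Among the other binding proteins, 2 of 6 were tested: Igfals, the third partner of the serum complex of IGF and IGFBP3, fell by 1.75 (adjusted p = 0.0017), while Igfbp6 differed by -0.36 (adjusted p = 0.153). Of 7 tested regulators of the binding proteins, 2 were higher (28.6%, against 11.2% of all genes) and 1 lower (14.3%, against 13.1%). Stc2, an inhibitor of the pappalysin proteases, rose by 1.77 and the proprotein convertase Furin by 1.47, whereas Pappa2, a protease that cleaves IGFBP3 and IGFBP5, fell by 2.23. The Pappa2 genotypes overlapped, AR113Q was well above background on 2 of 3 arrays, and the difference was -1.37 without AR113Q replicate 3 and -0.45 on slide 2. The growth hormone axis drives Igf1 transcription. Of its 8 listed genes, 1 was higher (12.5%, against 11.2% of all genes) and 2 were lower (25%, against 13.1%). Jak2 fell by 1.75 and the receptor Ghr by 1.35 on the brighter of its 2 probes (the other did not pass). Socs2, an inhibitor of the pathway, rose by 1.42, with overlapping genotypes. The rest of that list did not pass.

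Among 17 adaptors and brakes at the receptor, 6 were higher (35.3%) and 2 lower (11.8%). The shares over all genes, for this and the next lists, were 11.2% higher and 13.1% lower. Trib3, a pseudokinase that binds AKT, rose by 2.31 and Cblb, a ubiquitin ligase, by 2.11 on the brighter of its 2 probes (the other did not pass), while the caveolin Cav3 fell by 1.73. Fbxo40, the muscle ubiquitin ligase of IRS1, fell by 1.003, and by less than the fold threshold without AR113Q replicate 2 (-0.80). Among 23 genes of mTOR and translation, 5 were higher (21.7%), led by Sesn1 (4.66, but 3.29 without WT replicate 1 and 2.82 on slide 2) and Eif4ebp1 (1.98). In that list 2 were lower (8.7%), Ddit4l (-2.55) and Eif4e (-1.08, and -0.94 without WT replicate 3). In the RAS-MAPK arm 2 of 14 were higher and 2 lower (14.3% each, near the shares over all genes). In insulin-responsive glucose uptake 1 of 8 was higher (12.5%) and 2 lower (25%). In the mannose 6-phosphate sorting list, to which the role of Igf2r belongs, 0 of 7 were DEGs. Of 13 tested genes of the imprinted growth network, to which Igf2 belongs, 1 was higher (7.69%) and 6 were lower (46.2%). Peg3 rose by 2.93, and Mest was lower by at least 6.95-fold. Mest and 1 other of the 6, Nnat, were well above background on 0 of 3 AR113Q arrays and entered the test through WT alone. The 3 IGF2 messenger RNA binding proteins had no tested probe, and of the insulin-like and relaxin peptides 2 of 10 were tested and Insl6 rose by 1.30.

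Markers of connective tissue cells also differed between the genotypes. Of 12 markers of fibroblasts and fibro-adipogenic progenitors, 9 were DEGs with a lower level and 0 with a higher level (median -2.29). Their summed log2 signal was 16.13 to 16.54 in WT and 13.60 to 14.67 in AR113Q, without overlap, on the same arrays on which Igf1 and Igfbp5 were low. The differences of the 12 ran from -4.62 for Col3a1 to -0.26 for Ly6a. Of the 3 brightest over all arrays, Col1a2 fell by 2.25, Pi16 fell by 2.98, and Ly6a did not pass. The other marker whose adjusted p missed 0.05 was Pdgfra (-0.27, adjusted p = 0.424), which was well above background on all arrays. In bulk muscle, fewer cells of a type and less RNA per cell cannot be told apart. Tendon cell markers were lower for 4 of 7 (summed signal 13.09 to 14.28 in WT and 11.43 to 13.25 in AR113Q), and adipocyte markers for 5 of 7 (15.90 to 16.66 and 15.24 to 15.51). Myofiber markers, which define the labelled tissue, were all tested, with 1 of 12 lower and a summed signal of 20.05 to 20.32 in WT and 19.68 to 20.28 in AR113Q. Of the macrophage markers 3 of 10 were lower and 1 higher, of the satellite cell markers 3 of 6 were lower (1 of them, Calcr, with no AR113Q array well above background) and 2 higher, and of the endothelial markers 1 of 9 was higher. In the remaining lists 1 of 5 regenerating fiber, 1 of 7 smooth muscle and pericyte and 2 of 7 Schwann cell markers were lower. The shares over all genes, against which each marker list is set, were 13.1% lower and 11.2% higher. The part of any of these cell types in the changes of the members, Igf1 and Igfbp5 included, was not tested.

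**Figure D4:**
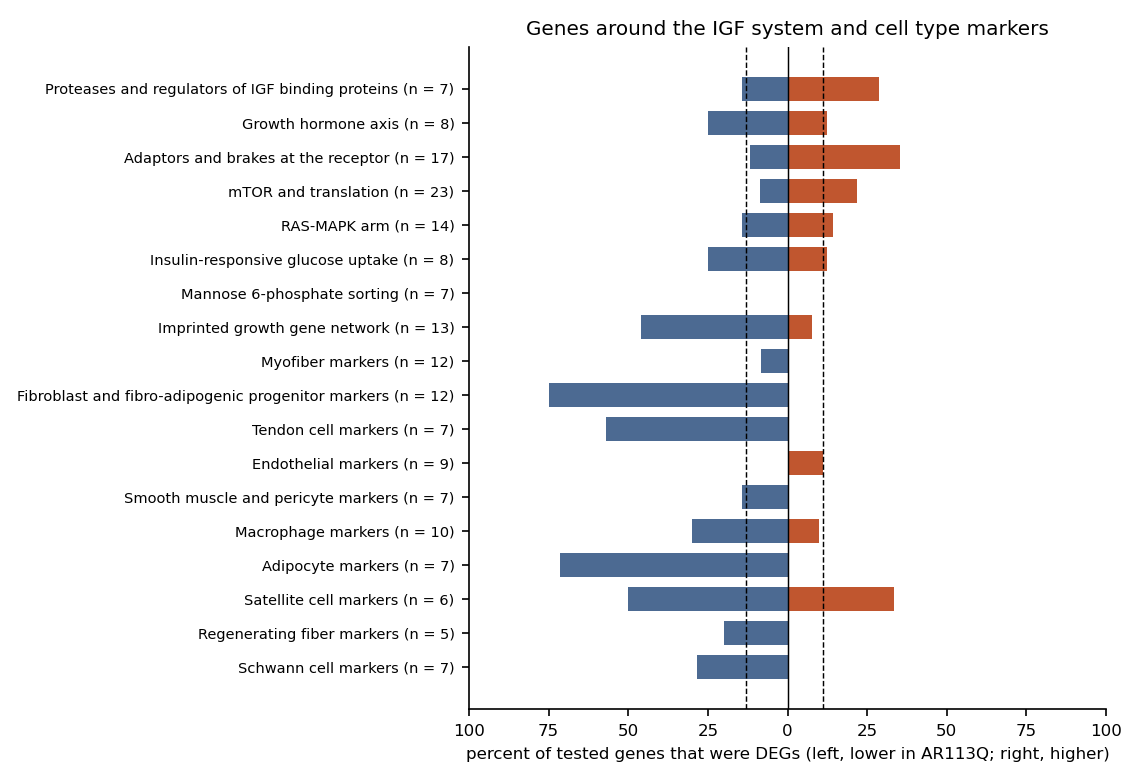
Percent of tested genes in each list that were DEGs (x axis, lower in AR113Q to the left in blue and higher to the right in orange) for lists described in the text with more than 2 tested genes (y axis); dashed lines are the shares over all 16553 genes, 13.1% lower and 11.2% higher. Adaptors and brakes at the receptor lean to the right with 35.3%, and fibroblast markers to the left with 9 of 12.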

How the data were processed

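RNA of mouse quadriceps was measured on 7 single-dye Agilent arrays, 4 WT and 3 AR113Q, grouped by the genotype in the labels. The authors extracted the spots with Agilent Feature Extraction 10.7.3.1, and the deposited scanner files give each spot's intensity after background subtraction and spatial detrending, with no scaling between arrays, so that dim signals spread widely on the log2 scale. A second deposited file holds the authors' log2 values for 18592 probes, quantile normalized per the methods, and served as an alternative. It followed each array's mean spot signal (r = 0.991 to 0.999). Depth has no meaning here, and the number of arrays limits the precision.

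Control spots and flagged outlier spots (94 to 151 per array) were left out, log2 intensities of 43020 spots were quantile normalized, and spots of a probe were averaged, giving 39429 probes. The filter asked for a signal well above background on 3 or more of 7 arrays and a value on every array, which left 20948 probes. Symbols came from RefSeq accessions (GRCm38.p6, names only; 28330 probes) and otherwise from the scanner files. The genotypes were compared with limma 3.58.1 (lmFit, eBayes) in R 4.3.3 with Benjamini-Hochberg adjustment over all kept probes, and pairs of related genes with exact permutation tests over arrays. The procedure was tested on simulated data. Replicate numbers did not pair the arrays (deviations of same-numbered arrays correlated at 0.04, -0.02 and 0.16).

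All probes of the 10 members are named. From each pathway list the 2 largest rises and 2 largest falls among DEGs could be named, and from a marker list the 3 brightest genes; Igfbp6, Pdgfra, Col3a1 and Calcr fall outside this rule and were named after their values were seen. The members and lists were chosen with earlier results of these data known. Some measured genes are not reported here. In all, 23 alternative settings were run, and leaving out 1 array for the listed genes was added after the data were examined.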

Additional observations from a re-analysis of the deposited data

How the results depend on the processing

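The number of DEGs among the 17 member probes was 13, and among all probes 5200. Background treatment moved both: there were 7 and 2082 with normexp, 8 and 2258 without background subtraction, and 6 (of 14 measured) and 1592 with the authors' normalized values, and the 6 member probes lost with normexp still passed the adjusted p but had changes under 1. With slide as a fixed effect there were 0 and 0 (7912 probes at an unadjusted p under 0.05, limma), a fit in which 1 slide carries the contrast. With no fold threshold there were 9189 over all probes. With 1 probe per gene, and with the mean over a gene's probes, 7 of 10 members were DEGs in both. With the replicate block there were 14 of 17 and 5184, and Igf1 probe 4 then passed (-1.06, adjusted p = 0.0348); this fit gives no weight to WT replicate 4, which has no partner, and its estimates equal those without that array (adjusted p = 0.0993 there). Leaving out 1 array gave 12 to 13 member DEGs, 4446 to 5556 over all probes, and 0 shifted pairs whichever array was left out, against 4 with all arrays. With 75th percentile scaling there were 0 shifted pairs, with normexp and without background subtraction 5 of 6, and with the authors' values 3 of 3. All 13 kept their direction in every setting run. Only differences that had not passed changed sign: Igf2 was -0.11 with 75th percentile scaling and -0.50 with slide as a fixed effect, Igf2r 0.022 with the authors' values and 0.044 with slide, and Igfbp4 -0.56 with slide. With 1 array left out, Igf2 ran from -0.16 to 0.41 (negative without WT replicate 1 or AR113Q replicate 3), Igf2r from -0.18 to 0.015 (positive without AR113Q replicate 3) and Igfbp4 from -0.11 to 0.37 (negative without AR113Q replicate 2). The median over all probes moved from 0.01 to -0.05 with 75th percentile scaling.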
